A study of Mus musculus with 19 samples.

Results

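The 10 genes described here encode glucose transporters and enzymes of glycolysis: *Slc2a1*, *Slc2a4*, *Hk1*, *Hk2*, *Pfkfb3*, *Pfkl*, *Aldoa*, *Pkm*, *Ldha* and *Ldhb*. They were chosen by name, and each matched 1 Ensembl gene among the 46078 genes of the deposited RNA-seq table. RNA-seq values of 19 libraries in 5 groups were examined. MG-WT are 3 mammary glands of age-matched wild-type mice. MG-N are 4 glands without malignant lesions from tumor-bearing *N* mice, and T-N are 4 mammary tumors of *N* mice. MG-NP and T-NP are 4 glands and 4 tumors of *NP* mice, collected in the same way.

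All 16 *N* and *NP* libraries came from female carriers of MMTV-neu, a transgene that drives the receptor ERBB2 in mammary epithelium, on a mixed FVB, C57 and BALB/c background. By the sample records, every *NP* library carried MMTV-neu, Fsp-Cre and p53wm-R172H/+, a conditional *Trp53* allele that gives wild-type p53 until Cre converts it to the R172H mutant. Fsp-Cre drives the recombinase in fibroblasts. The 4 T-N tumors and MG-N replicate 1 carried MMTV-neu and Fsp-Cre without the conditional allele. MG-N replicates 2, 3 and 4 carried MMTV-neu and the conditional allele without Cre, so the *N* glands and *N* tumors differed in genotype as well as in tissue.

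Glucose enters cells through facilitative transporters of the *Slc2a* family, and hexokinases trap it by phosphorylation. Phosphofructokinase then commits the sugar to glycolysis, aldolase splits it, pyruvate kinase makes pyruvate, and lactate dehydrogenase interconverts pyruvate and lactate. Most of these steps are served by several genes whose use differs between tissues: fat and skeletal muscle use the insulin-responsive transporter GLUT4 (*Slc2a4*), whereas GLUT1 (*Slc2a1*) serves basal uptake and is abundant in lactating gland and in many tumors. Many of these genes are known targets of hypoxia-inducible factor.

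In GRCm38 coordinates all 10 are protein-coding genes. *Slc2a1* lies at chr4:119108711-119137983 on the plus strand and *Slc2a4* at chr11:69942539-69948188 on the minus strand. *Hk1* lies at chr10:62268855-62379908 and *Hk2* at chr6:82725025-82774454, both on the minus strand. The genes of the phosphofructokinase step are *Pfkfb3* at chr2:11471433-11554077 and *Pfkl* at chr10:77986947-78010083, both on the minus strand. *Aldoa* lies at chr7:126795234-126800751 on the minus strand and *Pkm* at chr9:59656368-59679375 on the plus strand. *Ldha* lies at chr7:46841475-46855627 on the plus strand and *Ldhb* at chr6:142490249-142507957 on the minus strand.

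Promoters are shown for 5 of the genes that differed between glands and tumors, as described further on. *Slc2a1*, *Hk1* and *Pfkl* were higher and *Pfkfb3* was lower in T-N against MG-N and in T-NP against MG-NP. *Ldha* was higher in T-N than in MG-N. The windows of *Pkm*, also higher in both comparisons, and of *Aldoa* and *Ldhb*, also higher in T-N than in MG-N, are not printed. Each sequence is the 250 bases before a RefSeq start in GRCm38.p6, written 5′ to 3′ on the gene's strand. Capitals mark ACGTG or GCGTG on either strand, the cores of the hypoxia response element. The regions are chr4:119108495-119108744 (plus), chr10:62340422-62340671 (minus, the second of 2 *Hk1* starts), chr10:78009808-78010057 (minus), chr7:46845554-46845803 (plus, the first of 2 *Ldha* starts) and chr2:11502091-11502340 (minus, the second of 2 *Pfkfb3* starts).
Slc2a1: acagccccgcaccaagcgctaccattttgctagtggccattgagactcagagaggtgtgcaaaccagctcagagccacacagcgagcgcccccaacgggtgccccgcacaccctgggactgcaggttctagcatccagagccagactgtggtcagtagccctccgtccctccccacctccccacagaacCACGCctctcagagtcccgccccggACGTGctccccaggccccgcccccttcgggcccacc
Hk1: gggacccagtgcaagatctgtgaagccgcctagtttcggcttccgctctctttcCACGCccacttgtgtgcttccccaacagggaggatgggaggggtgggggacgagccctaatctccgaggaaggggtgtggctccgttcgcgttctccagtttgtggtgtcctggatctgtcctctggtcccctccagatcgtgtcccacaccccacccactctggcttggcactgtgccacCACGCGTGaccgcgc
Pfkl: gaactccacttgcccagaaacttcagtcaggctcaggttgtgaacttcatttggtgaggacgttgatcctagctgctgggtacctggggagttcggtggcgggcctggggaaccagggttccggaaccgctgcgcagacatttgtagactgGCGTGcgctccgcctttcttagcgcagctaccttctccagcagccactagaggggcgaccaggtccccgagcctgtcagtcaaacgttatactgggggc
Ldha: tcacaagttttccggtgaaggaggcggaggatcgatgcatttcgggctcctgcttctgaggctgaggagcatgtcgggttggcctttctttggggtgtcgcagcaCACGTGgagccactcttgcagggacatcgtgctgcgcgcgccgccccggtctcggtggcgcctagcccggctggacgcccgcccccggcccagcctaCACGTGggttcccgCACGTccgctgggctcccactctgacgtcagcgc
Pfkfb3: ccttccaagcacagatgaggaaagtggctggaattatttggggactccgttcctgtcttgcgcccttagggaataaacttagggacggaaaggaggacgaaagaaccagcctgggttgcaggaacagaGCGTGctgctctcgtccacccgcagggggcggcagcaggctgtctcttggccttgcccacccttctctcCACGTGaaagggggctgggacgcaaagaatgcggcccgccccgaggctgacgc

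In these windows *Ldha* held 5 matches to ACGTG, counted on both strands, of which 4 lie in 2 copies of the palindrome CACGTG (the E-box), which matches on each strand. *Slc2a1* held 1 ACGTG and 1 GCGTG, *Hk1* held 3 GCGTG, *Pfkl* held 1 GCGTG, and *Pfkfb3* held 2 ACGTG, both in 1 CACGTG, and 1 GCGTG. For *Hk1*, *Ldha* and *Pfkfb3* the window printed is the one with more matches. Their other window held 0 matches for *Hk1*, 1 GCGTG for *Ldha* and 1 ACGTG for *Pfkfb3*. Of all 32851 RefSeq windows of this length, 16.6% held ACGTG and 28.2% held GCGTG on either strand. Of the 15 windows of members, 8 held ACGTG and 6 held GCGTG. The *Aldoa* windows at chr7:126799255-126799504 and chr7:126799179-126799428 overlap, and the same ACGTG match was counted in both. Whether these counts exceed the shares over all windows was not tested. By gene, with more than 1 window for some, 6 of the 9 members with a window held ACGTG in at least 1 (*Slc2a1*, *Hk2*, *Pfkfb3*, *Aldoa*, *Pkm* and *Ldha*) and 6 held GCGTG (*Slc2a1*, *Hk1*, *Pfkfb3*, *Pfkl*, *Ldha* and *Ldhb*). The shares over all windows are per window and cannot be set against these counts by gene. A match describes the letters of the window and was not read as a binding site.

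Values are normalized counts, which are read counts divided by a size factor for each library. The MG-WT libraries held 54677315 to 62645459 reads assigned to genes, while the other 16 held 20899152 to 27262440, and every member had reads in every library. Several marker lists moved with the groups. The 9 genes of the white adipocyte list had 1.21 to 1.70% of MG-N reads and 0.481 to 1.12% of MG-NP reads, but only 0.0142 to 0.0204% in MG-WT and at most 0.0333% in tumors, and *Adipoq* was at 2 to 23 normalized counts in MG-WT. Immediate-early genes such as *Fos* had 1.09 to 1.42% of MG-WT reads and at most 0.0583% elsewhere. *Epcam*, a marker of epithelium, was at 1458 to 5402 normalized counts in MG-N and MG-NP, 7748 to 10566 in MG-WT and 26506 to 45956 in tumors. The 9 genes of the luminal epithelium list had 0.0524 to 0.113% of MG-N reads, 0.0261 to 0.116% of MG-NP reads, 0.316 to 0.361% in MG-WT and 0.354 to 0.680% in tumors, but their mean log2 value was higher in MG-WT (12.90 to 13.17) than in tumors (12.04 to 12.83). The 7 genes of the basal epithelium list had 0.188 to 0.230% in MG-WT, 0.0232 to 0.0854% in MG-N and MG-NP and at most 0.0132% in tumors, where the basal keratin gene *Krt5* was at 3 to 26 normalized counts. The 15 genes of the skeletal muscle list took 3.20, 17.7, 0.120 and 10.1% of the reads in MG-NP replicates 1 to 4, at most 0.176% in MG-N, at most 0.181% in tumors and at most 0.00635% in MG-WT. In such bulk samples, fewer cells of a type and less RNA per cell cannot be told apart.

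**Figure D1:**
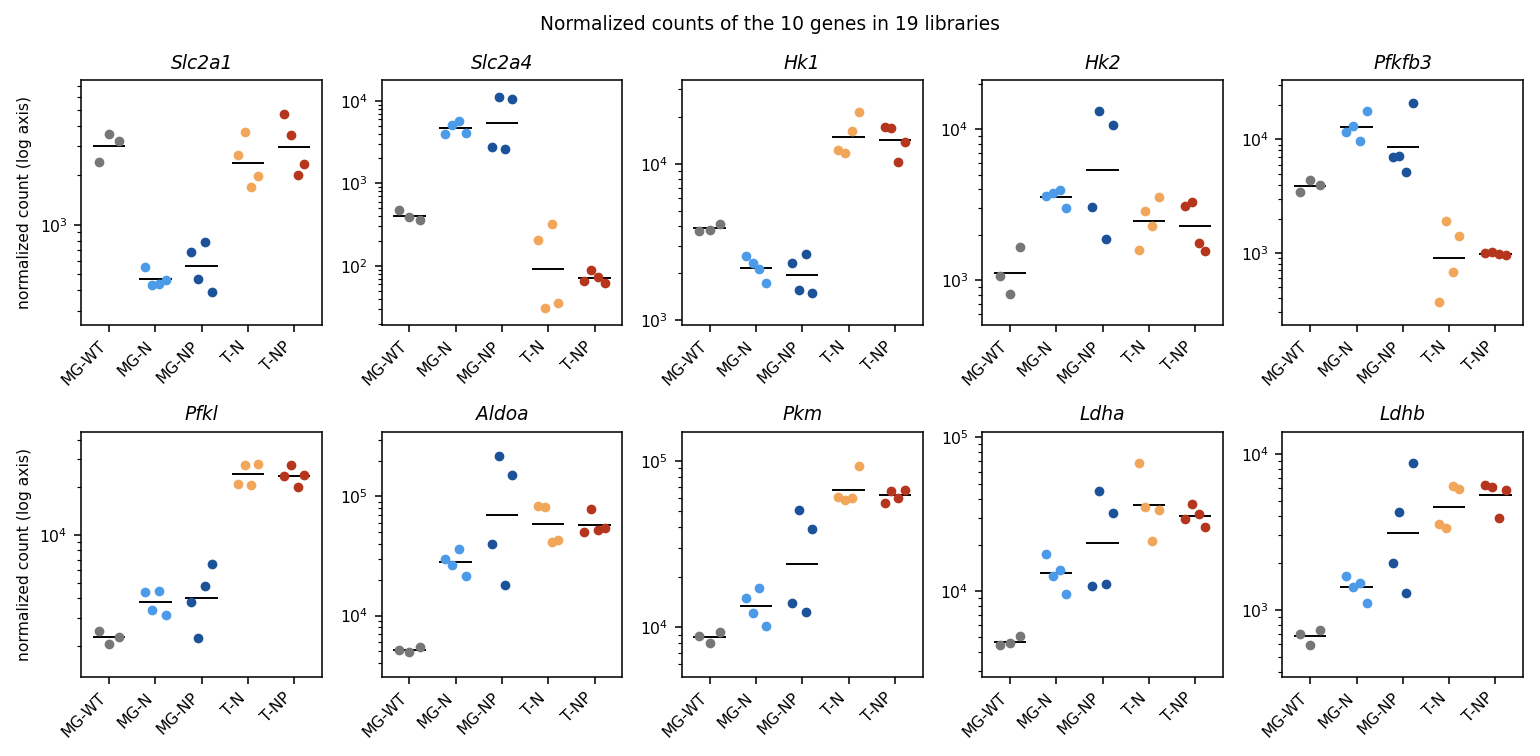
Normalized counts (log axis, a separate scale in each panel) of the 10 genes in the 19 libraries. Each point is a library and each line the geometric mean of its group. *Hk1*, *Pfkl* and *Pkm* sit higher in all 8 tumors than in all 11 glands, whereas *Slc2a4* and *Pfkfb3* sit lower.

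T-N differed from MG-N, and T-NP from MG-NP, in transporter, hexokinase and phosphofructokinase genes. In T-N against MG-N, 7 of the 10 genes were higher and 2 were lower at an adjusted p under 0.05 and at least a 2-fold change (limma, Benjamini-Hochberg over all genes), against 12.8% and 22.3% of all 17950 genes tested. The same 9 did not overlap between the groups, where 22.7% of all genes were higher and 26.4% lower without overlap. The median log2 fold change of the members was 1.59, against -0.05 over all genes. In T-NP against MG-NP, 4 were higher and 2 were lower, against 14.7% and 24.0% of 17880 genes, with medians of 0.70 and -0.07. These 6 did not overlap between the groups, and neither did 25.2% of all genes in the higher and 27.4% in the lower direction. *Slc2a1*, *Hk1*, *Pfkl* and *Pkm* rose and *Slc2a4* and *Pfkfb3* fell in both comparisons. *Epcam* and the share of reads of the luminal list were higher in the same tumors, and the shares of the white adipocyte, basal epithelium, endothelium and macrophage lists were lower. The endothelium list had 0.0385 to 0.104% of reads in MG-N and MG-NP and 0.00982 to 0.0190% in tumors. The macrophage list had 0.0522 to 0.128% in MG-N against 0.0143 to 0.0385% in T-N, and 0.0230 to 0.0580% in MG-NP against 0.0174 to 0.0224% in T-NP. Their part in the members' differences was not tested.

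The wild-type glands also differed from the glands of tumor-bearing mice. In MG-N against MG-WT, 6 members were higher and 1 was lower, against 19.1% and 17.9% of 19017 genes, with medians of 1.26 for the members and 0.02 for all genes. All 10 members lay apart without overlap, 8 above and 2 below, against 31.5% and 29.8% of all genes. In MG-NP against MG-WT, 6 were again higher and 1 lower, against 16.4% and 16.2% of 19065 genes, with medians of 1.80 and 0.02, and 7 lay above and 2 below without overlap, against 26.5% and 27.9%. Compared with MG-WT, T-N tumors had 7 members higher and 1 lower, against 17.4% and 25.0% of 18236 genes, and 6 lay above and 2 below without overlap, against 28.3% and 32.4%. T-NP tumors had 7 members higher and 2 lower, against 19.8% and 28.0% of 18233 genes, and again 6 lay above and 2 below without overlap, against 32.8% and 37.2%. These comparisons share the MG-WT libraries, which stood apart in depth and in immediate-early genes as given above. They also differed from the other glands in the white adipocyte, luminal, basal and skeletal muscle lists. The 5 genes of the erythrocyte list had 0.000234 to 0.000342% of MG-WT reads, 0.0680 to 0.116% in MG-N and 0.0297 to 0.0564% in MG-NP. In tumors they had 0.00494 to 0.0469%. The part of tissue make-up in the members' differences from MG-WT was not tested.

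**Figure D2:**
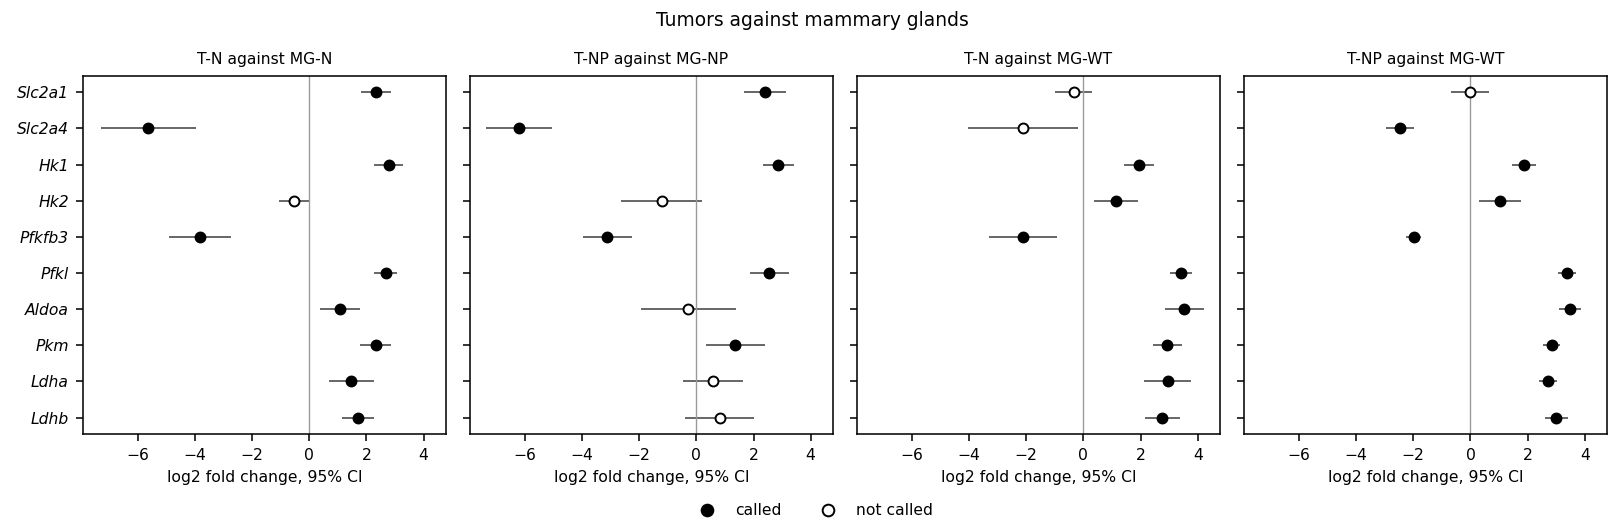
Log2 fold changes (points) with 95% confidence intervals (lines) of the 10 genes in 4 comparisons of tumors with glands, each a limma fit of 2 groups. Filled points passed an adjusted p of 0.05 and a 2-fold change. *Slc2a4* and *Pfkfb3* lie left of 0 in all 4 panels, *Hk1* and *Pfkl* lie right of 0 in all 4, and *Aldoa*, *Ldha* and *Ldhb* have wide intervals in T-NP against MG-NP.

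The 2 transporter genes had opposite patterns. *Slc2a1* was at 2396, 3558 and 3210 normalized counts in MG-WT, at 554, 433, 437 and 461 in MG-N, and at 679, 471, 787 and 393 in MG-NP. In tumors it was at 2631, 3640, 1696 and 1978 in T-N and at 4708, 3521, 1999 and 2345 in T-NP. All tumors and all MG-WT glands were above all glands of tumor-bearing mice, and tumors overlapped with MG-WT. *Slc2a1* was 5.07-fold higher in T-N than in MG-N (log2 fold change 2.34, SE 0.24, limma adjusted p = 0.000161) and 5.29-fold higher in T-NP than in MG-NP (2.40, SE 0.32, limma adjusted p = 0.000355). It was 6.41-fold lower in MG-N than in MG-WT (limma adjusted p = 7.97e-06) and 5.37-fold lower in MG-NP than in MG-WT (limma adjusted p = 0.000674). Against MG-WT, its log2 fold change was -0.34 in T-N (95% confidence interval -0.98 to 0.30) and -0.02 in T-NP (-0.68 to 0.64), and neither passed the test.

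*Slc2a4* had the widest range of the 10 genes, with group means 93.2-fold apart. It was at 472, 388 and 355 normalized counts in MG-WT, at 3978, 5055, 5656 and 4024 in MG-N, and at 2769, 11089, 2594 and 10614 in MG-NP. Tumors had 208, 31, 321 and 35 in T-N and 66, 89, 73 and 62 in T-NP. Every gland of a tumor-bearing mouse was above every MG-WT gland, and every tumor was below. The MG-NP glands fell into a high and a low pair, and the high pair was replicates 2 and 4, the libraries with the most skeletal muscle reads. *Slc2a4* was 49.5-fold lower in T-N than in MG-N (log2 fold change -5.63, SE 0.73, limma adjusted p = 0.000458) and 74.0-fold lower in T-NP than in MG-NP (-6.21, SE 0.50, limma adjusted p = 3.49e-05). Against MG-WT it was 11.5-fold higher in MG-N (limma adjusted p = 2.47e-06) and 13.4-fold higher in MG-NP (limma adjusted p = 0.00225). T-NP was 5.53-fold below MG-WT (limma adjusted p = 1.88e-05). The fall in T-N against MG-WT had an adjusted p of 0.0615 in limma and passed the threshold without T-N replicate 1 (-2.50) or replicate 3 (-2.70), the T-N libraries with the most *Slc2a4*. The white adipocyte genes were high in the same 8 glands.

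**Figure D3:**
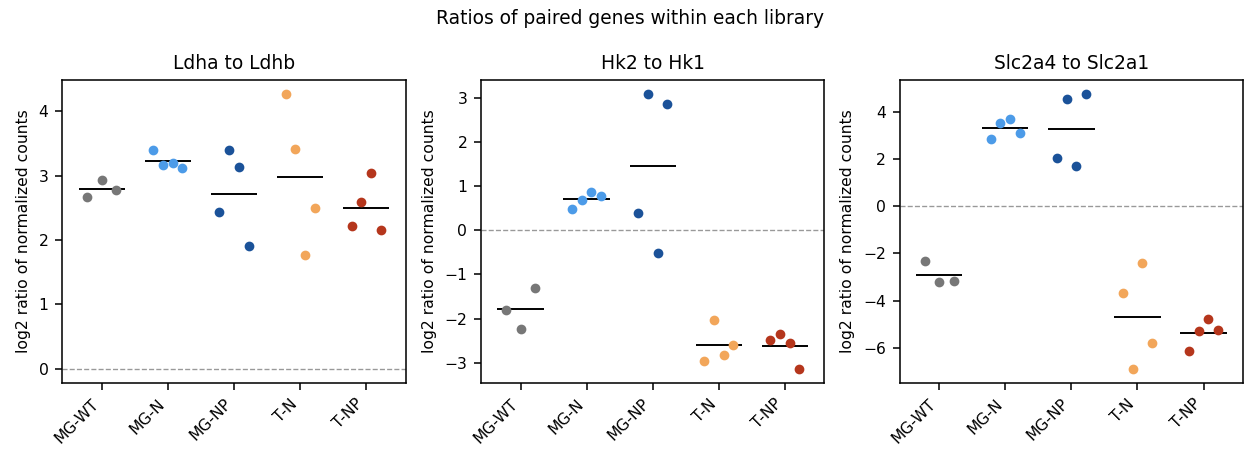
Log2 ratios of normalized counts within each library (points) and the group mean (line) for *Ldha* to *Ldhb*, *Hk2* to *Hk1* and *Slc2a4* to *Slc2a1*. The ratios of transporters and of hexokinases lie above 0 in all MG-N glands and below 0 in all MG-WT glands and all tumors.

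Within a library, the log2 ratio of *Slc2a4* to *Slc2a1* reads does not depend on the size factors. It ranged from 2.84 to 3.70 in MG-N and from 1.72 to 4.76 in MG-NP. The ratio was -3.20 to -2.34 in MG-WT, -6.90 to -2.40 in T-N and -6.15 to -4.78 in T-NP. The sign of the ratio thus separated the 8 glands of tumor-bearing mice from the other 11 libraries.

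The hexokinases also differed between tissues. *Hk1*, the broadly expressed hexokinase, was at 3705, 3787 and 4128 normalized counts in MG-WT, at 2564, 2339, 2140 and 1738 in MG-N, and at 2328, 1552, 2644 and 1489 in MG-NP. Tumors reached 12212, 11649, 16116 and 21351 in T-N and 17260, 16808, 10338 and 13707 in T-NP. The lowest tumor was above the highest gland, and MG-WT lay above all glands of tumor-bearing mice. *Hk1* was 6.84-fold higher in T-N than in MG-N (log2 fold change 2.77, SE 0.22, limma adjusted p = 6.98e-05) and 7.33-fold higher in T-NP than in MG-NP (2.87, SE 0.24, limma adjusted p = 4.17e-05). Against MG-WT the rise was 3.84-fold in T-N (limma adjusted p = 0.000356) and 3.68-fold in T-NP (limma adjusted p = 3.67e-05). Its difference between MG-N and MG-WT, a log2 fold change of -0.83 with a limma adjusted p of 0.00138, did not reach 2-fold. Between MG-NP and MG-WT it was -0.99, which also fell short of 2-fold, and it passed the threshold without MG-NP replicate 1 (-1.08) or 3 (-1.14) and without MG-WT replicate 1 (-1.03) or 2 (-1.01).

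*Hk2*, the hexokinase of muscle and fat, was not called by limma in T-N against MG-N or in T-NP against MG-NP. It was at 1061, 807 and 1663 normalized counts in MG-WT, at 3601, 3755, 3931 and 2992 in MG-N, and at 3064, 13163, 1862 and 10728 in MG-NP. Tumors had 1579, 2867, 2275 and 3555 in T-N and 3107, 3279, 1766 and 1559 in T-NP. MG-NP replicates 2 and 4 were above all other libraries, and tumors overlapped with each group of glands. The log2 fold change was -0.53 in T-N against MG-N (95% confidence interval -1.07 to 0.01, limma adjusted p = 0.0929) and -1.21 in T-NP against MG-NP (-2.62 to 0.20, limma adjusted p = 0.126). The latter was called lower by DESeq2 (-1.56, adjusted p = 0.0179), by limma with all 5 groups in 1 fit (-1.21, adjusted p = 0.0417) and by limma without MG-NP replicate 3 (-1.72, adjusted p = 0.0235). Against MG-WT, *Hk2* was 3.15-fold higher in MG-N (limma adjusted p = 0.000479) and 4.73-fold higher in MG-NP (limma adjusted p = 0.0341). The call in MG-NP was lost without any of the 3 MG-WT replicates and without MG-NP replicate 2 or 4 (adjusted p from 0.0599 to 0.112). It was 2.19-fold higher in T-N (limma adjusted p = 0.0204) and 2.05-fold higher in T-NP (limma adjusted p = 0.0205) than in MG-WT, although the groups overlapped. Both calls were lost without MG-WT replicate 1 (log2 fold changes of 1.09 and 0.99) or 2 (0.89 and 0.79). The T-N call was also lost without T-N replicate 4 (0.95), and the T-NP call without T-NP replicate 1 (0.89) or 2 (0.86).

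The log2 ratio of *Hk2* to *Hk1* was 0.49 to 0.88 in MG-N and -0.51 to 3.08 in MG-NP. It was -2.23 to -1.31 in MG-WT, -2.95 to -2.02 in T-N and -3.14 to -2.36 in T-NP. Per kilobase of annotated exon, the mean normalized count of *Hk2* was 598 in MG-N against 257 for *Hk1*. In T-N tumors the order was the opposite, with 430 for *Hk2* and 1797 for *Hk1*, and in MG-WT the values were 197 and 454.

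At the phosphofructokinase step, the enzyme gene and its regulator moved apart. *Pfkl*, the liver-type phosphofructokinase, was at 2464, 2045 and 2285 normalized counts in MG-WT, at 4346, 3385, 4432 and 3122 in MG-N, and at 3749, 2241, 4756 and 6568 in MG-NP. It was at 21070, 27698, 20682 and 28018 in T-N and at 23574, 27690, 19978 and 23859 in T-NP. All 8 tumors lay within 19978 to 28018, and the highest gland was at 6568. *Pfkl* was 6.38-fold higher in T-N than in MG-N (log2 fold change 2.67, SE 0.18, limma adjusted p = 4.58e-05) and 5.87-fold higher in T-NP than in MG-NP (2.55, SE 0.30, limma adjusted p = 0.000200). The rises over MG-WT were 10.7-fold in T-N (limma adjusted p = 1.40e-05) and 10.5-fold in T-NP (limma adjusted p = 7.95e-07). Its log2 fold changes in glands against MG-WT, 0.74 in MG-N and 0.83 in MG-NP, did not pass the threshold. Without MG-NP replicate 2, the latter was 1.12 and passed.

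*Pfkfb3* encodes a bifunctional enzyme that makes the sugar bisphosphate activator of phosphofructokinase. It was at 3468, 4371 and 3959 normalized counts in MG-WT, at 11580, 13133, 9732 and 17971 in MG-N, and at 6965, 7098, 5168 and 20794 in MG-NP. Tumors had 367, 1911, 679 and 1391 in T-N and 986, 1023, 979 and 950 in T-NP. Each gland was above each tumor, and T-NP spanned a far narrower range than T-N. *Pfkfb3* was 14.1-fold lower in T-N than in MG-N (log2 fold change -3.82, SE 0.48, limma adjusted p = 0.000395) and 8.67-fold lower in T-NP than in MG-NP (-3.12, SE 0.38, limma adjusted p = 0.000229). It was also 4.34-fold lower in T-N (limma adjusted p = 0.00962) and 3.97-fold lower in T-NP (limma adjusted p = 2.64e-06) than in MG-WT. Against MG-WT it was 3.26-fold higher in MG-N (limma adjusted p = 0.000228). In MG-NP the log2 fold change was 1.12 (limma adjusted p = 0.0714), and it passed the threshold without MG-NP replicate 3 (1.37, adjusted p = 0.0358).

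*Aldoa*, the aldolase of muscle and most other tissues, varied most of the 10 genes between the MG-NP libraries. It was at 5122, 4922 and 5447 normalized counts in MG-WT, at 29960, 26649, 36020 and 21417 in MG-N, and at 39958, 218521, 18094 and 151353 in MG-NP. Tumors had 83520, 81522, 41777 and 43378 in T-N and 50239, 78194, 51983 and 54537 in T-NP. MG-NP replicates 2 and 4 were above every tumor, while replicates 1 and 3 were below every tumor. *Aldoa* was 2.12-fold higher in T-N than in MG-N (log2 fold change 1.08, SE 0.30, limma adjusted p = 0.0167), and this call was lost without T-N replicate 1 (0.92), T-N replicate 2 (0.93) or MG-N replicate 4 (0.95). In T-NP against MG-NP the log2 fold change was -0.28 (95% confidence interval -1.92 to 1.37, limma adjusted p = 0.766). Leaving out MG-NP replicates 2 and 4 together, an alternative chosen after seeing the data, turned it to 1.10 (limma adjusted p = 0.0345). Against MG-WT, *Aldoa* was 5.43-fold higher in MG-N (limma adjusted p = 1.91e-05) and 13.6-fold higher in MG-NP (limma adjusted p = 0.00858). The rises in T-N and T-NP were 11.5-fold (limma adjusted p = 9.58e-05) and 11.2-fold (limma adjusted p = 1.85e-06).

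*Pkm* encodes the pyruvate kinase of muscle, tumors and most other adult tissues, and the table holds 1 value for all its isoforms. It was at 8785, 8038 and 9314 normalized counts in MG-WT, at 15040, 12067, 17117 and 10195 in MG-N, and at 13924, 50949, 12219 and 38872 in MG-NP. It was at 60267, 58021, 60017 and 93741 in T-N and at 56013, 66313, 59937 and 67026 in T-NP. Every tumor was above every gland, including the high MG-NP replicates 2 and 4. *Pkm* was 4.99-fold higher in T-N than in MG-N (log2 fold change 2.32, SE 0.24, limma adjusted p = 0.000175) and 2.58-fold higher in T-NP than in MG-NP (1.37, SE 0.46, limma adjusted p = 0.0312). The call in T-NP was lost without MG-NP replicate 1 or 3 or any 1 of the 4 T-NP replicates, where it was 1.04 to 1.42 on the log2 scale with adjusted p of 0.0539 to 0.0806. The rises over MG-WT were 7.66-fold in T-N (limma adjusted p = 6.16e-05) and 7.15-fold in T-NP (limma adjusted p = 1.34e-06). In glands against MG-WT, the log2 fold change was 0.62 in MG-N, short of 2-fold, and 1.47 in MG-NP (limma adjusted p = 0.0496). The latter call was lost without any 1 of the MG-WT replicates and without MG-NP replicate 2 or 4, where it was 1.11 to 1.52 on the log2 scale with adjusted p of 0.0777 to 0.130.

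The 2 lactate dehydrogenase subunits changed in the same direction. *Ldha*, the subunit that predominates in muscle and in many tumors, was at 4445, 4572 and 5097 normalized counts in MG-WT, at 17479, 12609, 13652 and 9631 in MG-N, and at 10756, 44924, 11204 and 32399 in MG-NP. Tumors had 68136, 35423, 21245 and 33850 in T-N and 29241, 37003, 31788 and 26168 in T-NP. T-N was above MG-N in every library, whereas T-NP overlapped with MG-NP replicates 2 and 4. *Ldha* was 2.78-fold higher in T-N than in MG-N (log2 fold change 1.48, SE 0.35, limma adjusted p = 0.00736). In T-NP against MG-NP it was 0.59 (95% confidence interval -0.47 to 1.65, limma adjusted p = 0.306). Without MG-NP replicates 2 and 4, its 2 highest glands and left out after seeing the data, it was 1.49 (limma adjusted p = 0.000679). Against MG-WT it was 2.78-fold higher in MG-N (limma adjusted p = 0.000338), 4.36-fold in MG-NP (limma adjusted p = 0.0139), 7.73-fold in T-N (limma adjusted p = 0.000393) and 6.56-fold in T-NP (limma adjusted p = 2.21e-06). Without MG-WT replicate 1, the adjusted p in MG-NP was 0.0512 at a log2 fold change of 2.08.

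*Ldhb*, the subunit typical of heart and other oxidative tissues, was at 698, 595 and 740 normalized counts in MG-WT, at 1647, 1403, 1485 and 1105 in MG-N, and at 1980, 4241, 1272 and 8657 in MG-NP. It was at 3531, 3331, 6246 and 5974 in T-N and at 6257, 6160, 3865 and 5886 in T-NP. MG-NP replicate 4 was the highest of all 19 libraries, and T-N did not overlap with MG-N. *Ldhb* was 3.28-fold higher in T-N than in MG-N (log2 fold change 1.71, SE 0.24, limma adjusted p = 0.000699). In T-NP against MG-NP it was 0.81 (95% confidence interval -0.40 to 2.02, limma adjusted p = 0.222), and it passed without MG-NP replicate 4 (1.31, adjusted p = 0.0225). It also passed without replicates 2 and 4 (1.78, adjusted p = 0.00142), its 2 highest glands and left out after seeing the data. Against MG-WT it was 6.77-fold higher in T-N (limma adjusted p = 0.000155) and 8.05-fold higher in T-NP (limma adjusted p = 4.18e-06). The gland rises over MG-WT were 2.07-fold in MG-N (limma adjusted p = 0.000697) and 4.59-fold in MG-NP (limma adjusted p = 0.0209). The first fell under 2-fold without MG-N replicate 1 (log2 fold change 0.97) or MG-WT replicate 2 (0.96), and the second was lost without any 1 of the MG-WT replicates (adjusted p from 0.0605 to 0.0708). The log2 ratio of *Ldha* to *Ldhb* ran from 1.77 to 4.27 in T-N and from 1.90 to 3.41 in MG-NP, and both ranges overlapped with those of all other groups. It ran from 3.12 to 3.41 in MG-N, above 2.67 to 2.94 in MG-WT and 2.15 to 3.04 in T-NP.

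**Figure D4:**
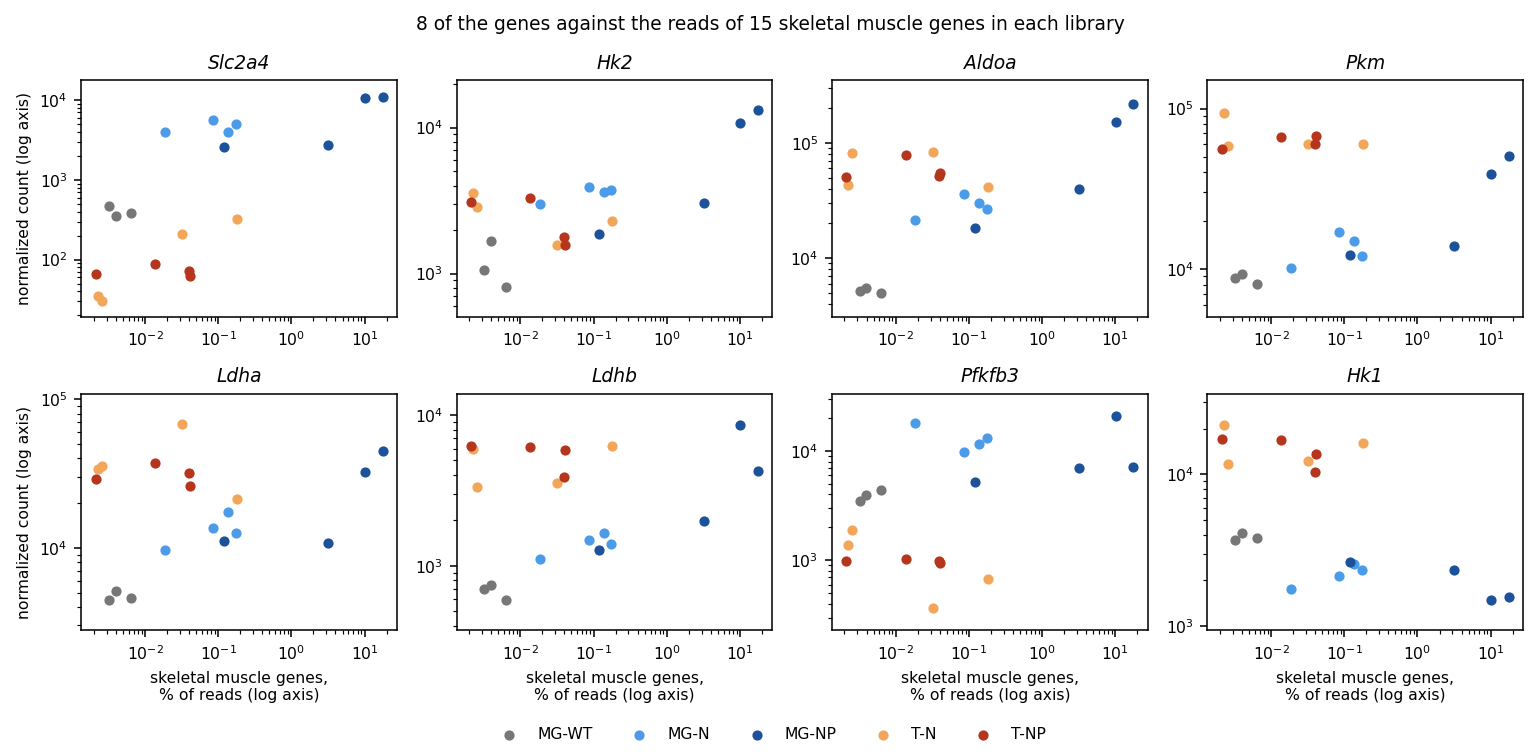
Normalized counts of 8 of the genes (log axis) against the share of reads from 15 skeletal muscle genes (log axis) in each of the 19 libraries, coloured by group. MG-NP replicates 2 and 4, at 17.7 and 10.1% of reads, hold the highest counts of *Slc2a4*, *Hk2* and *Aldoa*, while *Hk1* is at its lowest there.

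In glands, *Slc2a4*, *Hk2*, *Aldoa*, *Pkm*, *Ldha* and *Ldhb* had their highest values in MG-NP replicates 2 and 4, and *Hk1* had its lowest there. *Ckm*, the muscle creatine kinase, was at 261243 and 143794 normalized counts in these glands, 36447 and 1175 in MG-NP replicates 1 and 3, and at most 1425 in MG-N. Muscle forms of other glycolytic enzymes followed it: *Eno3* ranged from 604 to 75575 and *Pgam2* from 77 to 14734 within MG-NP. MG-NP replicate 4 also had 56926 normalized counts of *Ucp1*, the uncoupling protein of brown fat. Without replicates 2 and 4, 9 of the 10 members were called in T-NP against MG-NP in place of 6, and *Hk2* was the exception. These were 7 higher and 2 lower, against 13.3% and 24.1% of 18934 genes. The calls gained were *Aldoa*, *Ldha* and *Ldhb*, whose 2 highest MG-NP values lay in the libraries left out. Leaving those libraries out, a choice made after seeing the data, raises the difference of these genes by construction. The calls gained therefore cannot decide whether these genes are higher in T-NP. With the muscle score as a covariate, 4 members were called higher and 2 lower in T-NP against MG-NP, against 9.37% and 15.1% of all genes. In MG-NP against MG-WT that fit called 0 members in place of 7, and 5.39% of all genes higher and 7.12% lower in place of 16.4% and 16.2%. The scores of MG-NP and MG-WT did not overlap, at 3.81 to 3.94 in MG-WT and 9.04 to 16.98 in MG-NP. Those of T-NP, at 3.59 to 8.48, did not overlap with MG-NP either. In both fits muscle content and group can hardly be told apart, so neither set of calls shows what muscle content contributes.

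Per kilobase of annotated exon, the 10 genes had a different order in each tissue. In T-N the mean normalized counts per kilobase ran from 21487 for *Aldoa*, 13600 for *Pkm* and 11983 for *Ldha* through 3650 for *Pfkl*, 3039 for *Ldhb*, 1797 for *Hk1*, 709 for *Slc2a1* and 430 for *Hk2* to 144 for *Pfkfb3* and 42.7 for *Slc2a4*. In MG-N *Aldoa* was again first at 9794, followed by *Ldha* at 4031, *Pkm* at 2720, *Pfkfb3* at 1733 and *Slc2a4* at 1345, and *Slc2a1* was last at 134. *Pfkfb3* and *Slc2a4*, which stood last in T-N, were thus in the middle of the order in these glands. Together the 10 genes had 0.122 to 0.128% of MG-WT reads, 0.301 to 0.382% in MG-N, 0.261 to 1.03% in MG-NP, 0.621 to 0.930% in T-N and 0.671 to 0.869% in T-NP.

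No difference between the *NP* and *N* groups was detected in these genes by limma, edgeR or DESeq2. Comparing MG-NP with MG-N, limma called 0 of the 10 members and 0% of 18563 genes, as did edgeR, while DESeq2 called 401 genes higher and 113 lower but 0 members. The lowest unadjusted p of a member was 0.0612. The log2 fold changes ran from -0.58 (*Pfkfb3*) to 1.32 (*Aldoa*), with intervals of -1.54 to 0.37 and -0.37 to 3.01. For *Slc2a1* and *Hk1*, the intervals were -0.27 to 0.79 and -0.67 to 0.34. All 10 members overlapped between the groups, where 2.06% and 4.15% of all genes did not overlap in the higher and lower direction.

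Between the tumors, the estimates lay closer to 0. In T-NP against T-N, limma called 0 of the 10 members, against 0.0361% of 16638 genes higher and 0.00601% lower. Neither edgeR nor DESeq2 called a member. Over the same 16638 genes, edgeR called 0 and DESeq2 called 51 higher and 34 lower. The lowest unadjusted p was 0.345 and all 10 members overlapped, where 2.64% of all genes were higher and 1.57% lower without overlap. The log2 fold changes ran from -0.36 for *Slc2a4* (95% confidence interval -2.04 to 1.32) to 0.32 for *Slc2a1* (-0.40 to 1.04). *Pfkl* had the narrowest interval, -0.44 to 0.38, and *Pkm* had -0.61 to 0.41.

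**Figure D5:**
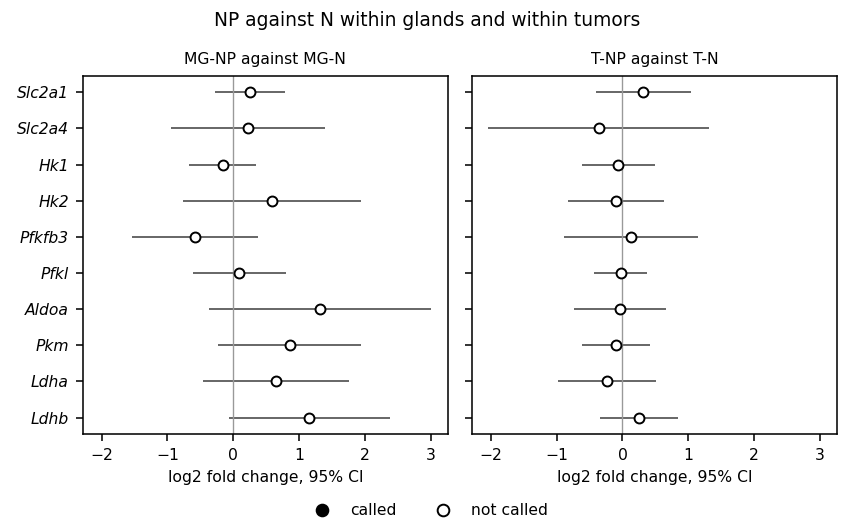
Log2 fold changes (points) with 95% confidence intervals (lines) of the 10 genes in NP against N, within glands and within tumors, from limma fits of 2 groups. All 20 points are open, so none passed the threshold, and all 20 intervals include 0.

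Whether the tumor-gland difference itself differed between *NP* and *N* was tested with an interaction contrast over the 16 *N* and *NP* libraries. No member passed, with adjusted p from 0.703 to 0.989 in limma, and 0% of 19367 genes passed, although 7.93% had an unadjusted p under 0.05. edgeR called 0 genes and DESeq2 called 80 higher and 276 lower, with 0 members among them. The estimates for *Aldoa*, *Pkm*, *Ldha* and *Ldhb* were -1.36, -0.95, -0.89 and -0.90, with 95% confidence intervals reaching from -3.12 to 0.41, -2.09 to 0.18, -2.19 to 0.41 and -2.23 to 0.43. Those of *Slc2a1*, *Hk1* and *Pfkl* were 0.06, 0.10 and -0.12. The smaller count of members called in T-NP against MG-NP than in T-N against MG-N is therefore not shown to be a difference between *NP* and *N*.

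The other 67 genes of glucose handling, in 8 lists written by role, showed which parts of the pathway moved with the members. In T-N against MG-N, 8 of the 14 tested among the other glycolytic enzymes were higher and 1 was lower, against 12.8% and 22.3% of all genes. Their median log2 fold change was 1.33. *Aldoc*, the brain-type aldolase, rose 44.1-fold (log2 fold change 5.46, limma adjusted p = 0.000513), from 557 to 6385 normalized counts in MG-N to 39323 to 111390 in T-N. *Gapdh* rose 3.62-fold (limma adjusted p = 0.0111), *Pfkp*, the platelet-type phosphofructokinase, 2.53-fold (limma adjusted p = 0.0284) and *Pfkm*, the muscle type, 2.49-fold (limma adjusted p = 0.00127). In T-NP against MG-NP, 4 of the 14 were higher and 2 were lower, against 14.7% and 24.0% of all genes. The median log2 fold change of the 14 was 0.18 in that comparison, against -0.07 over all genes. There *Aldoc* rose by a log2 fold change of 6.02 (limma adjusted p = 1.16e-05) and *Pfkp* 2.01-fold (limma adjusted p = 0.00619), while the muscle forms *Eno3* and *Pgam2* fell (log2 fold changes of -6.19 and -6.95, limma adjusted p of 0.00482 and 0.00761). *Gapdh* had a log2 fold change of 0.06 there and did not pass. *Pfkm* did not pass there either and pointed the other way (log2 fold change -2.46, 95% confidence interval -4.96 to 0.05, limma adjusted p = 0.0871), with 934 to 54174 normalized counts in MG-NP and 1892 to 2270 in T-NP.

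In the lists for sugar transport and the fate of pyruvate, lower calls in tumors stand beside 22.3% of all genes called lower and 12.8% higher in T-N, and 24.0% and 14.7% in T-NP. Of 9 other sugar transporters tested, 5 were lower and 1 was higher in each tumor-gland comparison. *Slc2a3*, which encodes the high-affinity transporter GLUT3, fell 6.33-fold in T-N (limma adjusted p = 0.000281) and 15.8-fold in T-NP (limma adjusted p = 1.90e-05). The fructose transporter gene *Slc2a5* fell 96.6-fold in T-N (limma adjusted p = 0.000174). That fall exceeded its 73.8-fold rise in MG-N over MG-WT, where counts were very low, so its size depends on the 1 added to each count. Among the 4 phosphofructokinase regulators other than *Pfkfb3*, 3 were lower and 0 higher in each comparison, with *Pfkfb1* 23.5-fold lower in T-N (limma adjusted p = 6.35e-06). Pyruvate dehydrogenase and its kinases had 4 of 9 lower in T-N and 3 of 9 in T-NP, and 0 higher. *Pdk4*, a kinase that restrains pyruvate oxidation, fell 23.5-fold in T-N (limma adjusted p = 0.00184) and 146-fold in T-NP (limma adjusted p = 2.78e-05). Lactate and pyruvate transporters were mixed, with 2 of 6 higher and 2 lower in T-N, and 1 higher and 3 lower in T-NP.

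Of 10 hypoxia-inducible factor targets outside glycolysis, 4 were higher and 2 lower in each tumor-gland comparison. Over all genes, 12.8% were higher and 22.3% lower in T-N, and 14.7% and 24.0% in T-NP. The targets named here are those with the largest rises, while the 2 called lower and the 4 not called are not named. *Car9*, a carbonic anhydrase, rose 51.3-fold in T-N (limma adjusted p = 0.000379) and 51.2-fold in T-NP (limma adjusted p = 0.000106). *Egln3*, an oxygen sensor that is itself induced by the factor, rose 20.6-fold (limma adjusted p = 0.000645) and 13.3-fold (limma adjusted p = 0.000140). GLUT4 trafficking genes had 1 of 8 lower and 0 higher in each comparison, and the 2 glucose-sensing arrestins had 1 lower in T-N and 0 called in T-NP. Over all 62 tested of these other genes, 15 were higher and 19 lower in T-N, and 10 were higher and 19 lower in T-NP.

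In glands against MG-WT, 20 of the 62 tested among these other genes were higher and 4 lower in MG-N, against 19.1% and 17.9% of all genes. In MG-NP, 21 of 63 were higher and 1 lower, against 16.4% and 16.2%. *Pfkfb1* was higher in MG-N (log2 fold change 4.46, limma adjusted p = 3.67e-07) and in MG-NP (4.25, limma adjusted p = 0.00122). *Slc2a5* rose in MG-N from 2 to 3 normalized counts in MG-WT to 95 to 1019. *Vamp2*, a vesicle protein of GLUT4 traffic, was 2.85-fold lower in MG-N (limma adjusted p = 6.87e-05) and 2.76-fold lower in MG-NP (limma adjusted p = 0.000272). *Pdk4* was 3.19-fold lower in MG-N (limma adjusted p = 0.00196), as was *Slc5a1*, a sodium-coupled glucose transporter, at 3.90-fold (limma adjusted p = 0.0152), the latter call being lost without MG-WT replicate 2 (log2 fold change -1.84, adjusted p = 0.0543). *Eno3* rose in MG-NP (log2 fold change 6.17, limma adjusted p = 0.0143) and lost the call without MG-WT replicate 3 (adjusted p = 0.0508).

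Tumors against MG-WT gave 18 of 61 tested genes higher and 7 lower in T-N, against 17.4% and 25.0% of all genes. In T-NP, 23 of 62 were higher and 8 lower, against 19.8% and 28.0%. *Car9* was 36.9-fold higher in T-N (limma adjusted p = 0.000507) and 75.1-fold higher in T-NP (limma adjusted p = 4.71e-07), and *Aldoc* 28.4-fold (limma adjusted p = 6.72e-05) and 34.3-fold (limma adjusted p = 1.38e-07). *Pgk1*, the phosphoglycerate kinase gene, rose 12.4-fold in T-N (limma adjusted p = 0.000420). *Pdk4* fell 74.8-fold in T-N (limma adjusted p = 0.000838) and 136-fold in T-NP (limma adjusted p = 1.74e-06). *Slc2a13*, a proton-coupled inositol transporter, fell 13.1-fold (limma adjusted p = 0.000741) and 16.4-fold (limma adjusted p = 2.92e-05).

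Likeness to the members was measured as Pearson's r of log2 values over the 19 libraries, among 14832 genes with a mean of at least 50 normalized counts. These r describe 5 groups of unequal tissue make-up rather than 19 independent points. *Slc2a4* was most like *Fxyd1* (r = 0.995), *Tmem182* (0.982) and *Tmem178b* (0.982), and *Pfkfb3* most like the monocarboxylate transporter gene *Slc16a7* (0.977), *Hoxa9* (0.954) and *Tmem243* (0.950). *Slc2a1* was most like *Tex30* (0.965), *Fam221a* (0.963) and *Map7* (0.961), and *Pfkl* like *Nudt1* (0.981), *Polr2d* (0.971) and *1110008P14Rik* (0.969). For *Hk2* the closest were *Pgm1* (0.943), *Ndufs1* (0.941) and *Vapb* (0.938), and for *Aldoa* they were *Mrpl42* (0.966), *Atp5o* (0.961) and *Vdac3* (0.961). *Pkm* was most like *AW209491* (0.972), *Zfp30* (0.971) and *Cops5* (0.968). The subunit genes differed, with *Dnlz* (0.956), *Snrnp27* (0.950) and *Tmem147* (0.940) for *Ldha*, and *Mrps23* (0.965), *Pla2g12a* (0.951) and *Bod1* (0.945) for *Ldhb*.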

How the data were processed

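RNA-seq values of 19 libraries were used (3 MG-WT and 4 of each other group), grouped by the genotype and tissue in the sample records. Alignment, by the authors, used TopHat2 (version 2.1.1) and Bowtie2 on GRCm38. The counting tool, its annotation and its use of strand are not given in the sources used here. The library kit is given as total RNA in the sample records and as mRNA in the paper. The deposited signal values are normalized counts: counts of whole reads that the authors divided by 1 DESeq2 size factor per library. Reads were recovered from the step between values, and they set the depth and the count tests. MG-WT held 54677315 to 62645459 reads and the other libraries 20899152 to 27262440. Whether replicates came from separate animals is not stated for each, so p-values measure the spread between these libraries. T-NP replicates 1 and 2 share a number in their library names and may come from the same animal, in which case T-NP would not hold 4 independent tumors.

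Gene names, positions and exon lengths were taken from GENCODE vM21, in which 97.97% of the identifiers were found. Promoter windows came from RefSeq (GRCm38.p6); *Slc2a4* had none. Antisense and copy genes of the members held few reads: *Gm12868* at most 1.03, *Hk1os* at most 37.5, and *Aldoart1*, *Aldoart2*, *Ldha-ps* and *Ldha-ps2* at most 10.2 normalized counts. *Fam57b* shares 25 exon bases with *Aldoa* on the other strand and reached 403.

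For each comparison, genes with at least 10 normalized counts in as many libraries as the smaller group were tested on log2(normalized count + 1) with limma (version 3.58.1, trend) in a fit of the 2 groups. Fold changes are on that scale. A call is an adjusted p under 0.05 (Benjamini-Hochberg over all genes tested) and at least a 2-fold change. An interaction contrast over 16 libraries was called by adjusted p alone. Intervals are at 95%. The fit was tested on simulated data for T-N against MG-N and T-N against MG-WT only, with the same dispersion for every gene. The spread of the MG-NP libraries was not simulated. Alternatives were pseudocounts of 0.5 and 5, no filter, a mean filter of 50, TMM, edgeR (version 4.0.16), DESeq2 (version 1.42.0), no fold threshold, 1 fit of all groups, a replicate block, each library left out, T-NP replicates 1 and 2 averaged, and a skeletal muscle score as a covariate. Leaving out MG-NP replicates 2 and 4 together was added after seeing the data.

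The members, the 8 lists of other glucose genes and the marker lists were chosen with earlier results of these data known. All 10 members are named. Of the other lists, the genes named are the 3 called with the largest change each way per comparison, and *Pfkm*, *Pfkp*, *Aldoc*, *Gapdh*, *Eno3*, *Pgam2* and *Slc2a3*. Of those most like a member, the 3 with the highest r are named, and those of *Hk1* are not reported here.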

Additional observations from a re-analysis of the deposited data

Results flagged for a closer look

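In groups of 4 libraries, the gap of the highest or lowest library to its neighbour was compared with the range of the group for the 10 members and 5 log2 ratios, which gave 60 groups and 2 that passed Dixon's 95% critical value. About 1 in 20 groups is expected to pass by chance. In T-N, *Pkm* of replicate 4 lay at 16.52 on the log2(normalized count + 1) scale, above 15.82 to 15.88 in the other 3 tumors, a gap of 0.921 of the range. In T-NP, *Ldhb* of replicate 3 lay at 11.92, below 12.52 to 12.61 in the others, a gap of 0.873 of the range. Leaving out either library changed no call of the same gene in T-N against MG-N or MG-WT for *Pkm*, or in T-NP against MG-NP or MG-WT for *Ldhb*.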

How the results depend on the processing

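The count of members called stayed within 1.5 times its value under every alternative run, except in MG-NP against MG-WT. There, 7 members were called, 0 with the skeletal muscle score as a covariate and 4 to 9 when 1 library was left out. There were 4 without MG-WT replicate 1 or replicate 3. Over all genes, 3136 of 19065 were called higher and 3081 lower. These were 2404 and 2524 of 19770 without MG-WT replicate 1, and 2419 and 2595 of 19840 without MG-WT replicate 3. Over the other comparisons, leaving out 1 library gave 6 to 7 calls for MG-N with MG-WT and 8 to 9 in T-N against MG-N. It gave 5 to 7 in T-NP against MG-NP, 7 to 9 in T-N against MG-WT and 8 to 9 in T-NP against MG-WT. There were 0 in MG-NP against MG-N, T-NP against T-N and the interaction. Over all genes, these fits called 3432 to 3640 higher and 3114 to 3434 lower for MG-N with MG-WT. They called 2083 to 2341 and 3661 to 4419 in T-N against MG-N, and 2401 to 2813 and 4069 to 4547 in T-NP against MG-NP. Against MG-WT they called 2778 to 3164 and 3844 to 4705 in T-N, and 3392 to 3666 and 4855 to 5154 in T-NP. In MG-N against MG-WT, dropping the fold threshold gave 10 calls in place of 7. Calls over all 19017 genes also rose, from 3636 higher and 3401 lower to 5697 and 5544. With all 5 groups in 1 fit, *Ldhb* (adjusted p = 0.0636), *Pdk4* (0.0759) and *Pgam2* (0.0680) lost their limma calls for MG-N with MG-WT, as did *Aldoa* in T-N against MG-N (0.103) and *Hk2* in T-N (0.0723) and T-NP (0.0974) against MG-WT. edgeR did not call *Pkm* in T-NP against MG-NP (0.0630). With T-NP replicates 1 and 2 averaged, *Pkm* lost its call in T-NP against MG-NP (log2 fold change 1.38, limma adjusted p = 0.0602). With the same averaging, *Hk2* fell under 2-fold in T-NP against MG-WT (log2 fold change 0.875) and lost its call.

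With the muscle covariate, log2 fold changes in MG-NP against MG-WT turned for *Hk1* (0.070), *Hk2* (-1.32), *Pfkfb3* (-0.43), *Aldoa* (-0.70), *Pkm* (-1.04), *Ldha* (-0.26), *Ldhb* (-0.74) and *Eno3* (-2.71). In T-NP against MG-NP they turned for *Hk2* (0.26) and *Aldoa* (2.07), and in MG-NP against MG-N for *Slc2a4* (-1.03), *Hk1* (0.13), *Hk2* (-1.06), *Aldoa* (-0.74), *Pkm* (-0.37), *Ldha* (-0.58) and *Ldhb* (-0.26). Without MG-NP replicates 2 and 4, they turned in T-NP against MG-NP for *Aldoa* (1.10) and in MG-NP against MG-N for *Slc2a4* (-0.79), *Hk1* (0.19), *Hk2* (-0.57), *Aldoa* (-0.059), *Pkm* (-0.032) and *Ldha* (-0.25). The cause was not tested. Of 2108 values of single genes under alternatives, 1973 kept direction and call, 57 lost and 21 gained the call, 24 turned as above, and 33 changed sign within their standard error, called in neither fit.

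The labels do not say that replicate numbers pair the libraries. Over 36 same-numbered pairs the correlation of deviations from group means ran from -0.25 to 0.29, with 1 pair over 0.1. These values were not set against pairs with different numbers, so they cannot decide whether libraries are paired. With the replicate block, 7 members were called for MG-N with MG-WT and 5 for MG-NP with MG-WT. There were 9 in T-N against MG-N, 6 in T-NP against MG-NP, 7 in T-N against MG-WT, 9 in T-NP against MG-WT and 0 elsewhere. Over all genes, the block called 3511 higher and 3248 lower of 19017 for MG-N with MG-WT. For MG-NP with MG-WT it called 2467 and 2593 of 19065, fewer than the 3136 and 3081 without it. It called 2181 and 3774 of 17950 in T-N against MG-N, and 2574 and 4123 of 17880 in T-NP against MG-NP. Against MG-WT it called 2918 and 4112 of 18236 in T-N, and 3632 and 5058 of 18233 in T-NP. TMM moved the median of all genes in T-NP against MG-NP from -0.07 to 0.03. With 3 or 4 libraries a group and the spread of MG-NP, differences under about the intervals given were not detectable.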
